A study of Mus musculus with 2 samples.

Results

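The cytosolic ribosomal protein genes were followed in mouse neural stem cells with and without knockdown of the histone variant H3.3. Members were taken by symbol, as protein-coding Rpl, Rps, Rplp0, Rplp1, Rplp2 and Rpsa genes, which gave 76 of the 18510 genes in the deposited table. Of these, 46 belong to the large and 30 to the small ribosomal subunit. The symbol rule itself uses no measured value, but it was chosen with earlier results of these data known. The mouse annotation holds 79 protein-coding genes of this pattern, and Rpl3l, Rpl10l and Rpl39l are not analysed here. A further row of the pattern, Rpl6l, is annotated as a processed pseudogene and was left out.

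The cells of both libraries were neural stem cells isolated from the brain of CD-1 embryos at embryonic day 12 and grown for 5 days in proliferation medium. One culture received lentivirus with a control plasmid and the other lentivirus with an H3.3 knockdown plasmid, so both groups were infected. Each group had 1 library, and no difference below has a replicate check or a p-value for the condition. Gene counts summed to 9184779 for the control and 8702855 for the knockdown. Levels are given in CPM, counts scaled to these totals, and ratios are knockdown over control. Each ratio carries a 95% interval of the pair of counts, which covers counting error only, and reads amplified by PCR are not independent molecules. H3f3b and H3f3a, which both encode H3.3, stood at 0.544 (interval 0.523 to 0.566) and 0.646 (0.601 to 0.695) of the control level. The progenitor markers Nes and Sox2 were present, with control counts of 5000 and 4797 and knockdown counts of 4019 and 3819, and so were neuronal transcripts such as Dcx, with 10396 and 13490 counts.

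A ribosome is built from a small subunit that reads the messenger RNA and a large subunit that joins amino acids, and each carries a set of ribosomal proteins around its ribosomal RNA. Growing and dividing progenitors make ribosomes at a high rate, and the messenger RNAs of ribosomal proteins share a stretch of pyrimidines at their 5′ end, the 5′ TOP motif, through which mTORC1 and Larp1 control their translation. Many of the genes have processed pseudogene copies, and several carry small nucleolar RNAs (snoRNAs) in their introns.

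The start-site sequence shows the feature that many of the genes share and that the choice of members did not use. RefSeq start-site windows on GRCm38.p6, which run from 250 bases before to 50 bases after the start, were matched by symbol for 56 members. The lines below hold 30 bases before the start and 20 bases from it, so the start is the first of the last 20 letters. Capitals mark the longest unbroken run of C and T of at least 8 bases that touches the 15 bases on either side of the start, where there is one. The genes shown are among those at the low end (Rpl4, Rpl22, Rpl26) and the high end (Rpl15, Rpl38, Rplp2, Rpsa, Rps2, Rps12) of the ratios given further on, with Rps9 as the gene of highest level per length and Rps6 as the substrate of S6 kinase.
Rpl4 (chr9:64173357-64173406, plus strand): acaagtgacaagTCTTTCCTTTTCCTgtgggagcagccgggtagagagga
Rpl22 (chr4:152325696-152325745, plus strand): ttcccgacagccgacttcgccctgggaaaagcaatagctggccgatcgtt
Rpl26 (chr11:68901536-68901585, plus strand): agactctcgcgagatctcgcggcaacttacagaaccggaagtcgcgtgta
Rpl15 (chr14:18270967-18271016, minus strand): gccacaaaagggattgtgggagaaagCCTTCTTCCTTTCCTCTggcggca
Rpl38 (chr11:114668550-114668599, plus strand): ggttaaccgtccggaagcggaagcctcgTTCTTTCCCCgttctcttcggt
Rplp2 (chr7:141447621-141447670, plus strand): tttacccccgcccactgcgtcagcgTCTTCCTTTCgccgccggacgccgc
Rps2 (chr17:24720033-24720082, plus strand): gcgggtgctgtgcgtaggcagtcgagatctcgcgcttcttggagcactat
Rpsa (chr9:120127736-120127785, plus strand): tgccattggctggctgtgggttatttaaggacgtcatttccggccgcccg
Rps6 (chr4:86857348-86857397, minus strand): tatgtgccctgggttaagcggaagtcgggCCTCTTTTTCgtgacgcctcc
Rps9 (chr7:3704011-3704060, plus strand): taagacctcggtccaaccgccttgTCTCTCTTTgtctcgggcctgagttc
Rps12 (chr10:23787190-23787239, minus strand): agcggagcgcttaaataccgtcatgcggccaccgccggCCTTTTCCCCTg

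A run of at least 8 pyrimidines lay at the start of 27 of the 56 members (48.2%), in 18 of 34 large and 9 of 22 small subunit genes. The same was found in 17.2% of the 12519 genes with a window and in 19.0% of the 2090 other genes whose mean was 100 CPM or more. The letters CCGGAAG, the core bound by ETS factors such as GABP, occurred on either strand in the window of 21 members (37.5%), against 16.0% of all windows. AAGATGG, the core of the YY1 motif, occurred in 14.3% against 6.69%. The Myc E-box CACGTG and the TATA box TATAAA were each found in 8.93% of members, against 9.66% and 7.46% of all windows. A match is a description of the letters and does not show that a factor binds. The listed starts can lie away from the true start. Their distance from the start of the annotated transcript was up to 769 bases (Rps10), with 127 for Rpl22 and 120 for Rps12. A gene printed without capitals may therefore still have a 5′ TOP motif, and capitals need not mark one.

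All 76 members passed the filter of 1 CPM on the mean, as did 13989 genes in all. Their share of all counts was 2.09% for the control (interval 2.08% to 2.10%) and 1.82% for the knockdown (1.81% to 1.83%). The summed level in the knockdown library was thus 0.872 of the control (0.866 to 0.878), and without Rpl4, the most abundant member in the control, it was 0.882. In bulk RNA, fewer cells with a high content of these transcripts and less of them in each cell cannot be told apart. The median log2 ratio of the members was -0.19, a ratio of 0.874, while the median of all tested genes was -0.03 and that of genes of at least 100 CPM -0.01.

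The log2 ratios of the members lay close together and almost all below 0. In 71 of 76 the log2 ratio was below 0, against 52.9% of all tested genes and 51.9% of genes of at least 100 CPM. The counting interval lay wholly below 1 in 56 members and wholly above 1 in 2, Rps2 and Rpsa. Of 2707 tested genes of at least 100 CPM, 1055 had an interval wholly below 1 and 978 wholly above. Over all 13989 tested genes the numbers were 3774 and 3204. The standard deviation of the log2 ratio over members was 0.13, compared with 0.38 over other genes of at least 100 CPM, and 48 members lay within 0.1 of their own median. The median half-width of the 95% counting intervals was 0.09 on the log2 scale. A 95% half-width is wider than a standard deviation of counting error, so counting error is only a part of the spread between members. The interval of 46 of the 76 members held the ratio of the summed members, 0.872. With 1 shared ratio and counting error alone, about 95% of the intervals would hold it.

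Individual differences were small. No member reached a 2-fold ratio with an interval that excludes 1, a rule that 3.82% of tested genes met as higher and 2.54% as lower. At a 1.2-fold ratio with an interval that excludes 1, no member was higher, where 18.1% of all tested genes and 20.8% of those of at least 100 CPM were. By the same rule 19 members (25%) were lower, 11 of the large and 8 of the small subunit, and this share is near the 21.1% of all tested genes and the 21.3% of genes of at least 100 CPM. The number of lower members was thus near the background, and the absence of higher ones and the small spread are described here without a test. Under a correction for transcript length and GC content the number of lower members was 12.

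**Figure D1:**
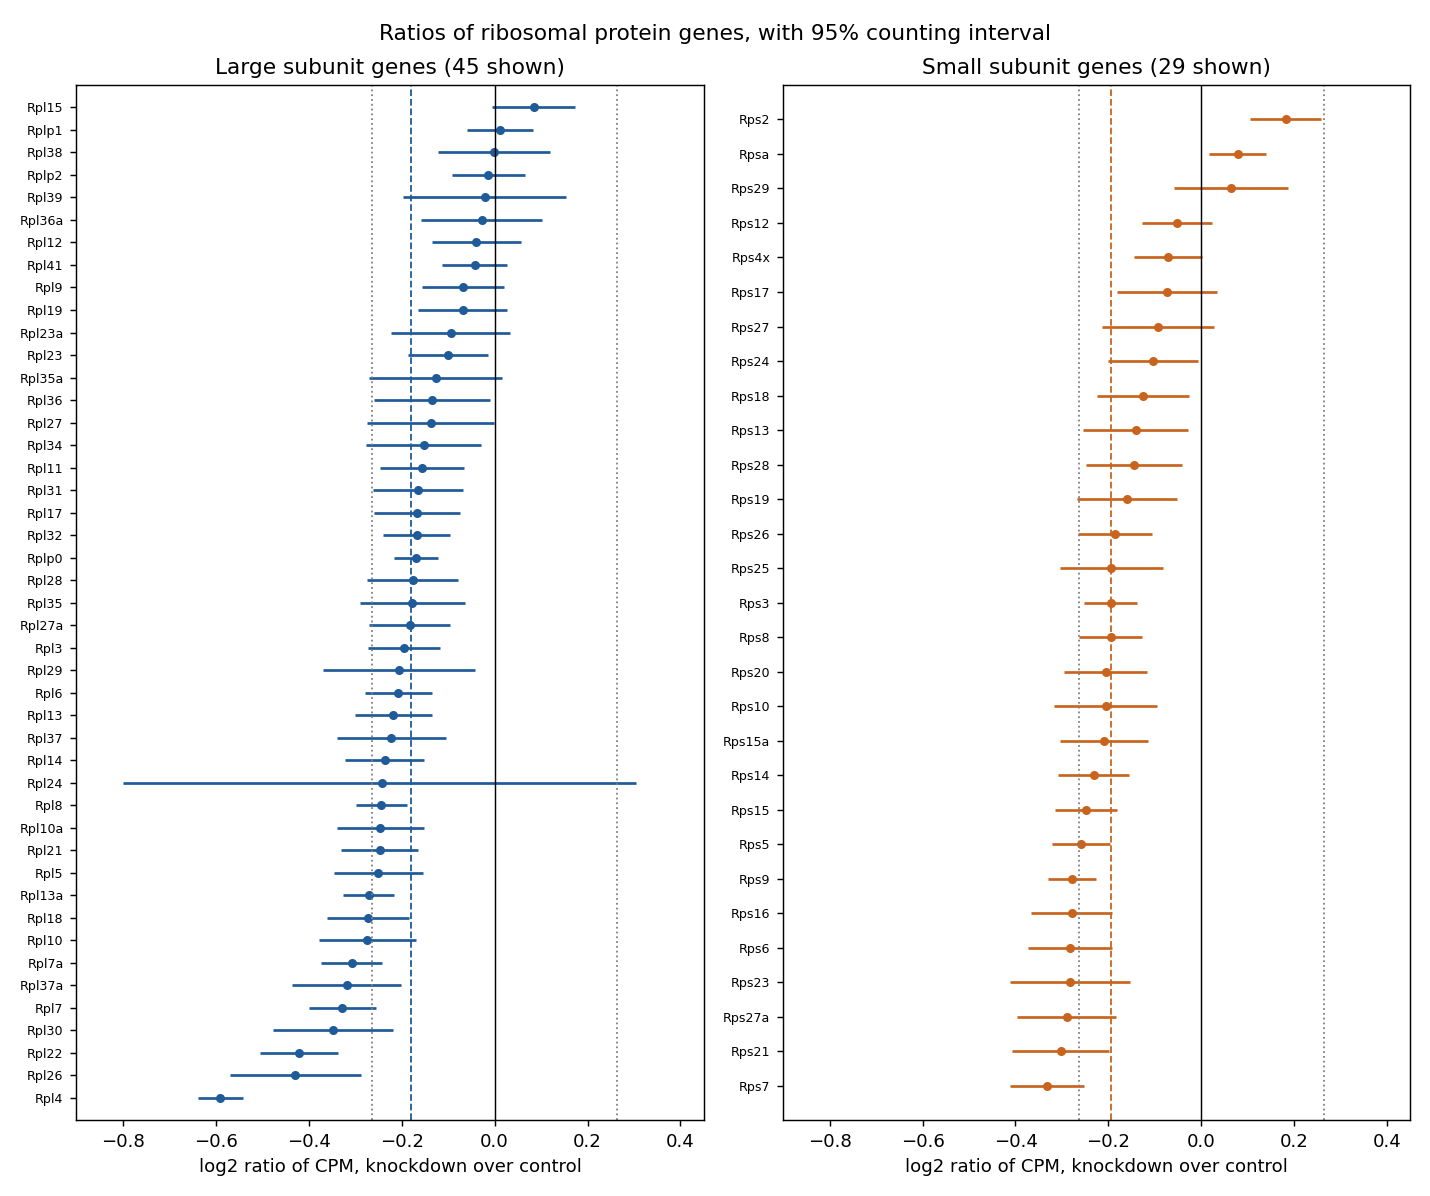
Log2 ratio of CPM, knockdown over control, for 45 large subunit genes (left) and 29 small subunit genes (right), 1 library per group. Points are the ratios, horizontal bars the 95% counting intervals, dashed lines the medians of all members of each subunit (-0.18 and -0.20), dotted lines a 1.2-fold difference in either direction. Rpl4 stands apart at the low end, Rpl24 has the widest interval, and Rps2 has the highest ratio.

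The subunits could hardly be told apart. The median log2 ratio was -0.18 for the large and -0.20 for the small subunit, a difference of 0.016 that became -0.017 when means were used. The summed large subunit genes stood at 0.861 of the control (0.854 to 0.869) and the summed small subunit genes at 0.887 (0.878 to 0.896). The counts of large to small subunit genes were in a ratio of 1.45 for the control and 1.41 for the knockdown, a relative difference of 0.971 (0.958 to 0.985). This difference rested on the most abundant genes. Without Rpl4 the value was 0.990, and without the 5 most abundant members of each subunit it was 0.997.

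**Figure D2:**
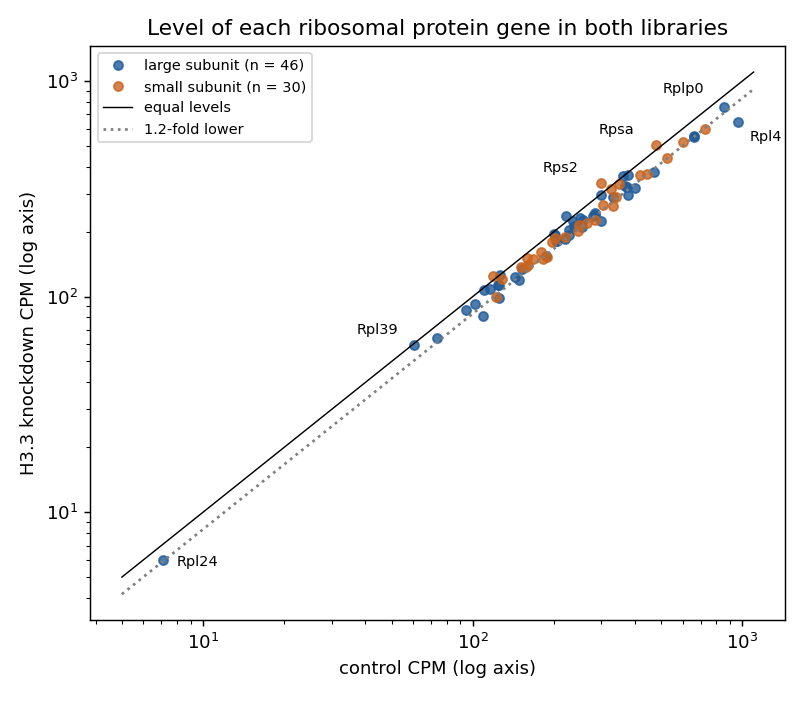
Level of each member in the control library (horizontal, CPM, log axis) and the knockdown library (vertical, CPM, log axis), coloured by subunit, 1 library per group. The solid line marks equal levels and the dotted line a level 1.2-fold lower, and most of the 76 points lie between or near these lines, with Rpl4 below them.

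Among large subunit genes, Rpl4 was the member with the lowest ratio. Rpl4 (ENSMUSG00000032399, chromosome 9 from 64173387 to 64178562 in the deposited table) encodes a protein that lines the tunnel through which the new peptide leaves the ribosome. Its 8875 control counts (966 CPM) compared with 5585 after knockdown (642 CPM), a ratio of 0.664 (0.642 to 0.687). Its log2 ratio of -0.59 was followed by that of Rpl26 at -0.43, and its interval overlapped only those of Rpl26 and Rpl24. The annotation places 5 snoRNA genes inside Rpl4 on its strand and lists no pseudogene under its symbol. Rpl26, a neighbour of the tunnel exit, had 1003 and 706 counts (0.743, 0.674 to 0.819). Rpl22, an RNA-binding protein that mouse cells can replace by its paralog Rpl22l1, had 2756 and 1951 counts (0.747, 0.705 to 0.792). The paralog itself had 175 and 193 counts (1.16, 0.944 to 1.44), so its interval includes 1. Rpl30 had 1152 and 858 counts (0.786, 0.719 to 0.859).

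At the other end of the large subunit, 5 genes had nearly equal levels in both libraries. Rpl15 had 2042 and 2051 counts, a ratio of 1.06 (0.997 to 1.13), and the gene Nkiras1 overlaps it on the other strand. Rplp1 had 3312 and 3165 counts (1.01, 0.960 to 1.06) and Rplp2 had 2736 and 2568 (0.991, 0.938 to 1.05). Rpl38, which in the mouse is required for translation of a subset of Hox messenger RNAs, had 1158 and 1097 counts (1.00, 0.920 to 1.09). Rpl39, a small protein of the exit tunnel, had 556 and 519 counts (0.985, 0.872 to 1.11).

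Grouped by place in the large subunit, the P stalk was nearer to equal levels than most members. The stalk is the flexible arm that recruits the translation factors which hydrolyse GTP. Its base protein Rplp0 had 7817 and 6586 counts (0.889, 0.860 to 0.919), and Rpl12 at the base had 1845 and 1701 (0.973, 0.910 to 1.04), beside the values of Rplp1 and Rplp2 above. The 4 genes together stood at 0.942 of the control (0.921 to 0.964), with a median log2 ratio of -0.027 that became 0.029 after correction for length and GC content. Rpl5 and Rpl11, which bind the 5S ribosomal RNA and, when free, the p53 regulator Mdm2, had ratios of 0.841 (0.787 to 0.898) and 0.897 (0.843 to 0.955). The 8 genes around the exit tunnel all had ratios below 1, with a median log2 ratio of -0.17 and a range from -0.59 (Rpl4) to -0.02 (Rpl39). By the 1.2-fold rule 2 of them, Rpl4 and Rpl26, were lower (25%, against 21.1% of all tested genes).

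Small subunit genes covered a narrower range at the low end. Rps7, a protein needed to process the 18S ribosomal RNA, had 3053 and 2298 counts (0.794, 0.752 to 0.839). Rps21 had 1732 and 1330 counts (0.810, 0.754 to 0.871). Rps27a, made as a fusion with ubiquitin, had 1670 and 1294 counts (0.818, 0.760 to 0.880). Rps23, which reaches into the decoding centre, had 1117 and 870 (0.822, 0.751 to 0.899). Rps6, the classic substrate of S6 kinase, was similar at 2262 and 1762 counts (0.822, 0.772 to 0.875). These 5 genes were lower by the 1.2-fold rule. Not all of them stayed so after the length and GC correction, where Rps21 lost the call.

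The genes above 1 in the small subunit were 3. Rps2, which sits at the entry of the messenger RNA channel, had 2734 control counts (298 CPM) against 2937 after knockdown (337 CPM), a ratio of 1.13 (1.08 to 1.19). Rpsa, known also as the laminin receptor, had 4396 and 4397 counts, which scale to a ratio of 1.06 (1.01 to 1.10). Rps29, a zinc-binding protein of the subunit head, had 1095 and 1085 counts (1.05, 0.961 to 1.14). Next in order came Rps12 with 3001 and 2742 counts (0.964, 0.915 to 1.02) and the X-linked Rps4x with 3208 and 2893 (0.952, 0.905 to 1.00). The 13 genes of the subunit head had a median log2 ratio of -0.19, with 12 below 0. By the 1.2-fold rule 1 of them, Rps16, was lower (7.69%, against 21.1% of all tested genes). That call was lost with TMM scaling.

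Levels differed between members far more than ratios did. Per kilobase of transcript, the control level had a median of 303 CPM, with 281 for large and 333 for small subunit genes. Rps9 was highest at 968 CPM per kilobase, and Rps15, Rpl41 and Rpl8 followed at 883, 863 and 775. At the low end stood Rpl39 at 98.9, Rps20 at 66.6 with an annotated transcript of 3706 bases, and Rpl24 at 10.5. Rpl24 had only 65 control and 52 knockdown counts, and its ratio of 0.844 had an interval from 0.575 to 1.23. The predicted gene Gm28037 overlaps Rpl24 on the same strand, and its part in the low count was not tested. In absolute counts Rpl4 and Rplp0 led the large subunit and Rps9 (6675 and 5215) and Rps3 (5508 and 4558) the small.

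The members' own properties were only weakly related to their ratios. Over the 76 genes of the same pair of libraries, Spearman's rho with the log2 ratio was -0.24 for transcript length, 0.17 for GC content, -0.16 for the number of exons, -0.17 for mean CPM, 0.12 for the number of named pseudogenes and -0.05 for the number of snoRNA genes inside. Members are short, with a median transcript of 705 bases, so length was looked at separately. The 59 members under 1000 bases had a median log2 ratio of -0.18, whereas 98 other genes of at least 100 CPM and under 1000 bases had 0.06. The 17 longer members had -0.21. The 29 members with a snoRNA gene inside had -0.20 and the 47 without had -0.18. Members with a pyrimidine run at the start had -0.18 (27 genes, 6 lower by the 1.2-fold rule), and those without had -0.17 (29 genes, 8 lower).

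**Figure D3:**
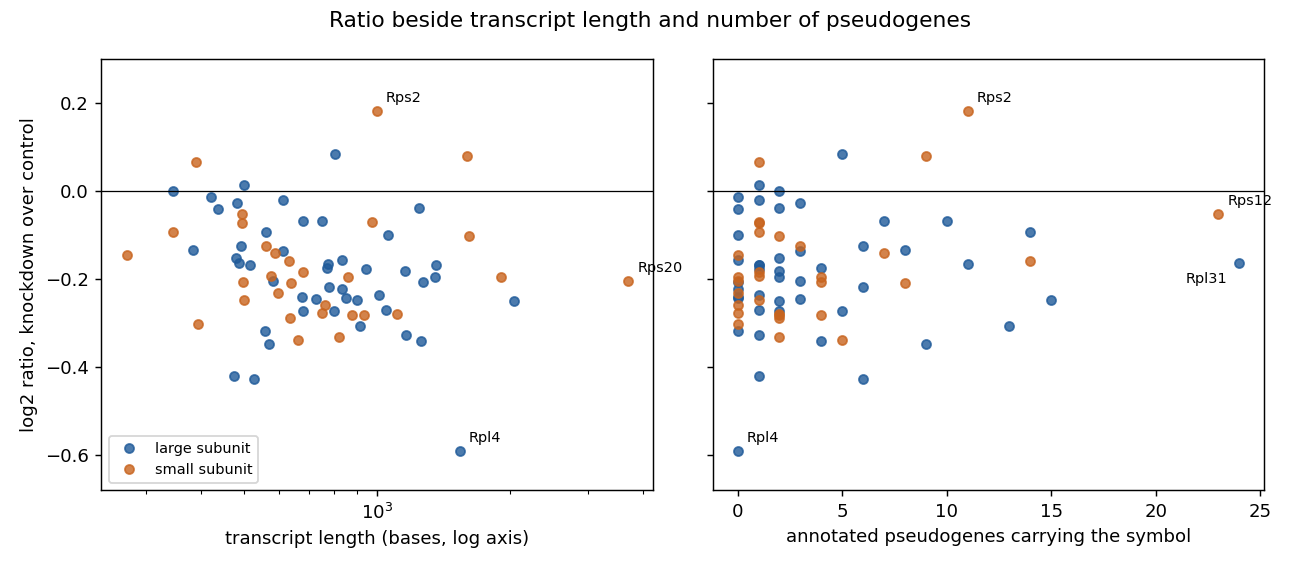
Log2 ratio of each member, knockdown over control, beside transcript length (left, bases, log axis) and the number of annotated pseudogenes carrying its symbol (right), coloured by subunit, 1 library per group. Ratios change little with either property, and Rps2 at the top has 11 named pseudogenes while Rpl4 at the bottom has none.

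Pseudogene copies can share reads with a member, which makes the values of many members uncertain. The annotation names 294 ribosomal protein pseudogenes after their parent gene, 60 of these have a row in the table, and 10 reached 1 CPM. The summed counts of all 60 were 1754 for the control and 1652 for the knockdown, a ratio of 0.994 (0.929 to 1.06). The most abundant were Rps24-ps3 with 592 and 540 counts and Rpsa-ps10 with 286 and 281. Copies annotated under other names were not counted, so a member without a named pseudogene may still have copies. The 17 members without a named pseudogene all had a log2 ratio below 0, with a median of -0.22 and a summed ratio of 0.839. That summed ratio includes Rpl4, the most abundant member in the control and the one with the lowest ratio. The 59 members with a named pseudogene had a median of -0.18, and 54 of them were below 0. The 11 members with at least 9 named pseudogenes had a median of -0.16. Rps2 and Rpsa, the only members with intervals above 1, have 11 and 9 named pseudogenes. With the counts of their pseudogenes added, their ratios were 1.14 and 1.05, with intervals still above 1. How reads that match several copies were counted is not given in the sources used here.

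Ribosomal protein genes whose symbols fall outside the pattern differed in both directions. Fau, a fusion of a ubiquitin-like protein with a small subunit protein, had 1650 and 1216 counts (0.778, 0.722 to 0.838). Rack1, a scaffold on the small subunit, had 6716 and 5246 counts (0.824, 0.795 to 0.855), a 1.2-fold difference that was lost with TMM scaling and after the length and GC correction. Rps3a1 stood at 0.866 (0.819 to 0.915) and Rpl7l1 at 0.857 (0.774 to 0.950). The paralogs Rps27l, at 1.04, and Rpl36al, at 1.04 (0.858 to 1.26), had intervals that include 1. Rps4l, annotated as a transcribed processed pseudogene, had 38 and 89 counts, 2.47-fold higher (1.67 to 3.72), and was the only gene of this list past the 2-fold rule.

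The lists of genes that make and use ribosomes had medians on the same side as the members, with a wider spread. Of 63 ribosome biogenesis factors, the median log2 ratio was -0.19 and 51 were below 0, and 23 (36.5%) were lower and 2 higher by the 1.2-fold rule. Over all tested genes 52.9% were below 0, 21.1% were lower and 18.1% higher by that rule. The lower factors included Nle1 (112 and 56 counts, 0.528, 0.376 to 0.734) and Ppan (325 and 178 counts, 0.578, 0.479 to 0.696), which act in maturation of the large subunit, and the nucleolar protein Nolc1 (0.686, 0.628 to 0.748). The most abundant factor, the nucleolar protein Ncl, had 6554 and 6217 counts, a ratio of 1.00 (0.967 to 1.04). Of 15 genes that transcribe ribosomal RNA, 5 (33.3%) were lower and none higher, among them Ubtf, the DNA-binding factor of the ribosomal RNA genes, at 0.784 (0.737 to 0.834) and the RNA polymerase I subunit Polr1b at 0.717 (0.588 to 0.874). The other abundant gene of this list, Rrn3, had a ratio of 1.04 (0.950 to 1.14). snoRNA host genes without a protein product, whose spliced transcripts also carry 5′ TOP motifs in several cases, had the lowest median, -0.43, with 6 of 9 lower and none higher. Gas5 had 868 and 643 counts (0.782, 0.705 to 0.867) and Snhg1 had 259 and 160 (0.652, 0.532 to 0.797).

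By their medians, translation factors and other 5′ TOP messenger RNAs were nearer to equal levels than the members. The 8 other genes with a 5′ TOP messenger RNA all had a log2 ratio below 0, with a median of -0.14. Their mean of -0.17 was close to the members' mean of -0.18. By the 1.2-fold rule 2 were lower (25%, as among the members, against 21.1% of all tested genes) and none higher. Tpt1 stood at 0.795 (0.768 to 0.822) and Hnrnpa1 at 0.710 (0.683 to 0.738), whereas Npm1 and Vim were at 0.998 (0.953 to 1.05) and 0.996 (0.972 to 1.02). The elongation factors Eef2 and Eef1a1 had ratios of 0.911 (0.895 to 0.927) and 0.962 (0.947 to 0.976). Eef1a2, the form of the same factor used by mature neurons and muscle, was higher at 635 and 974 counts (1.62, 1.46 to 1.79). Eef1d was lower at 1122 and 739 counts (0.695, 0.633 to 0.763). Of the 9 elongation factors, no others passed the 1.2-fold rule. The 37 initiation factors had a median of -0.12, with 10 (27.0%) lower and 1 higher. The 77 mitochondrial ribosomal protein genes had a median of -0.13, with 21 (27.3%) lower and 2 higher, and together stood at 0.905 of the control (0.889 to 0.923). Both shares of lower genes are near the 21.1% of all tested genes. The share of mitochondrially encoded transcripts was 3.27% before and 3.71% after knockdown of H3.3.

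**Figure D4:**
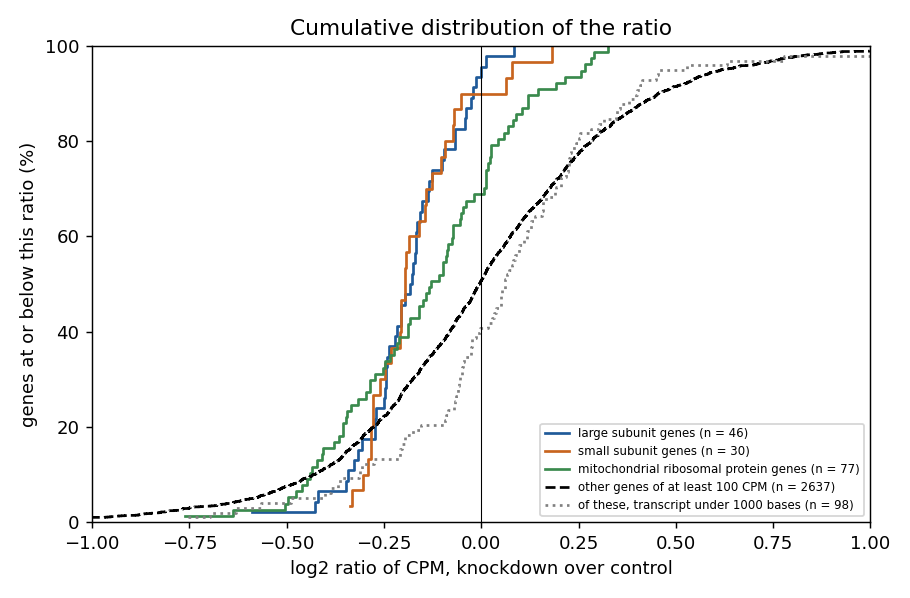
Cumulative share of genes (vertical, percent) at or below a log2 ratio, knockdown over control (horizontal, shown from -1 to 1), 1 library per group. The curves of both subunits are steeper than that of 2637 other genes of at least 100 CPM and lie to its left over most of their height, and the 98 other short genes lie to its right near 0.

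Regulators of ribosome production did not share 1 direction. Of 16 genes of the mTORC1 and S6 kinase pathway 4 were higher and 2 lower by the 1.2-fold rule, with a median of -0.02. Over all tested genes 18.1% were higher and 21.1% lower by that rule. Mtor itself had 1552 and 1587 counts (1.08, 1.01 to 1.16). The lower pair were Larp1, the repressor that binds 5′ TOP messenger RNAs, with 1593 and 903 counts (0.598, 0.551 to 0.650), and Akt1s1, an inhibitor of mTORC1 (0.603, 0.543 to 0.669). The higher genes were Rheb, which activates mTORC1, at 1.24 (1.13 to 1.35), and Sesn2 at 1.71 (1.54 to 1.90), Eif4ebp1 at 1.68 (1.26 to 2.25) and Deptor at 2.01 (1.29 to 3.19), which restrain mTORC1 or act against its output. In the Myc family 4 of 10 were lower and none higher. Mycn, the family member of neural progenitors, had 904 and 484 counts (0.565, 0.505 to 0.632), and Mxd3 had 248 and 96 (0.409, 0.319 to 0.519), while Myc had 747 and 670 (0.947, 0.852 to 1.05). Of the 5 genes that link free ribosomal proteins to p53, only Trp53 passed the 1.2-fold rule, at 0.815 (0.734 to 0.904), which it no longer did once length and GC content were corrected for (log2 ratio -0.24), and Mdm2 had a ratio of 1.09 (0.985 to 1.22).

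**Figure D5:**
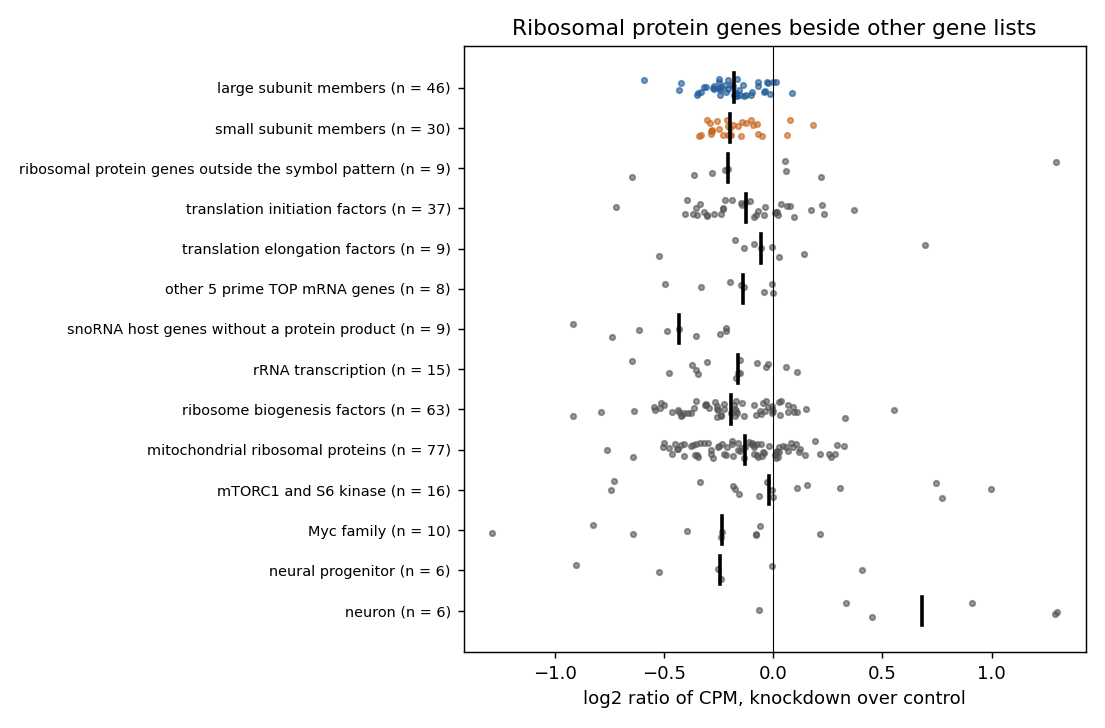
Log2 ratio, knockdown over control, of the members by subunit and of genes in 12 other lists, 1 library per group. Each point is a gene of at least 1 CPM, shifted vertically at random for visibility, and black bars are list medians, which run from -0.43 for snoRNA host genes to 0.68 for neuron markers.

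Markers of cell state differed alongside the ribosomal protein genes, and their part in the lower levels was not tested. By the 1.2-fold rule, 18.1% of all tested genes were higher and 21.1% lower. Of 6 neuron markers 5 were higher by that rule, with a median log2 ratio of 0.68. The summed counts of the neuron markers were 45685 for the control and 59933 for the knockdown, which scale to 1.38 (1.37 to 1.40). Gap43 had 3078 and 7180 counts (2.46, 2.36 to 2.57) and Snap25 had 713 and 1652 (2.45, 2.24 to 2.67). Of 6 progenitor markers 2 were lower and 1 higher, with a median of -0.24. Their summed counts of 33949 and 33034 scale to 1.03 of the control (1.01 to 1.04), so the sum and the median lie on opposite sides of equal levels. Pax6 stood at 0.536 (0.478 to 0.599) and Fabp7 at 1.33 (1.29 to 1.36). Of 5 markers of the oligodendrocyte lineage 2 were lower and 1 higher, and their summed level was 1.06 of the control (1.04 to 1.08). Mbp had a ratio of 0.440 (0.374 to 0.517), Olig2 1.05 (0.999 to 1.10) and Olig1 1.30 (1.26 to 1.34). Of 4 astrocyte markers 2 were lower, among them S100b with 68 and 7 counts, and 2 were higher, Aldh1l1 at 1.26 (1.19 to 1.34) and Aqp4 with 503 and 573 counts. Their summed level was 1.07 of the control (1.02 to 1.13). The 4 mesenchyme markers had 327 and 349 counts in all, with Col3a1 at 31 and 108 and Pdgfrb at 209 and 51. Microglia markers were near 0, with C1qa at 5 and 14 counts and Cx3cr1 at 5 and 1, and the erythroid genes of the list are not analysed here.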

How the data were processed

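The labels' protocols name oligo(dT) enrichment, random-primed cDNA and PCR, and HTSeq 0.6.0, Bowtie 1.0.1 and TopHat2 2.0.12 are listed in the submitters' processing notes. Not given in the sources used here were their settings, the genome build and the use of strand. Reads of overlapping genes and of near-identical copies can therefore not be told apart. Whole-number counts per gene were used as deposited. The deposited CPM values, in which the authors scaled each count by a constant per library, were not used, nor were the authors' ratio (fold change), log2 fold change and p-value columns.

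Counts were divided by column totals, and log2 ratios were taken with 0.5 count added to each library. Intervals are exact conditional (Clopper-Pearson) intervals at 95%, without added counts. Both fold rules (1.2 and 2) require a mean of at least 1 CPM and an interval that excludes 1. With 1 library per group nothing was tested for the condition. With 3 counts as the limit that a count of 0 allows, the floors were 0.327 CPM (control) and 0.345 CPM (knockdown). Symbols were found for 18423 Ensembl IDs (99.5%) in GENCODE vM21 (GRCm38), which also gave biotype, transcript length (shortest principal coding transcript), GC content, snoRNAs and pseudogenes. Of the members, 64 share at least 1 end with that annotation. Start-site sequences are RefSeq's. The members and lists were chosen with earlier results of these data known. Named in each subunit were the 5 highest and 5 lowest ratios and the 3 most and 3 least abundant genes, every gene of the P stalk, of the 5S particle and outside the pattern, and in other lists up to 4 genes past the 2-fold rule or else the 2 most abundant. A few genes under this rule are not reported here. Other named genes were chosen after their values were seen. The genes of human Diamond-Blackfan anaemia (18 members) had a median log2 ratio of -0.16. By the 1.2-fold rule 3 were lower (16.7%, against 21.1% of all tested genes). The calculation was run on simulated counts that carried counting error only. Spread between cultures was not simulated, so that run cannot show how far cultures differ. Tools were Python 3.11.15, pandas 2.3.3, scipy 1.17.1, R 4.3.3, edgeR 4.0.16 (TMM), DESeq2 1.42.0 (size factors) and mgcv 1.9.3.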

Additional observations from a re-analysis of the deposited data

How the results depend on the processing

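The median log2 ratios of all members and of each subunit stayed below 0 under every scaling, filter, added count, correction and choice of members tried, with all members between -0.22 (no named pseudogene) and -0.16 (length and GC correction). No setting gave a member past the 2-fold rule or higher by the 1.2-fold rule. The number lower by the 1.2-fold rule was 19, with 14 under TMM and 20 under DESeq2 scaling. It was 12 after the length and GC correction, and 4 among the 17 members without a named pseudogene, where fewer members were counted. The summed ratio of 0.872 was 0.882 with TMM and 0.864 with DESeq2 size factors. It was 0.839 for the members without a named pseudogene, which include Rpl4. Without the 5 most abundant members of each subunit it was 0.888, without Rpl4 0.882 and without members overlapped by any other gene 0.865. The relative difference of large to small subunit counts, 0.971, was 0.997 without the 5 most abundant members of each subunit and 0.990 without Rpl4. Leaving out Rpl4 or overlapped members and adding pseudogene counts were chosen after seeing the data. The list medians that changed sign were those of the P stalk (0.029 after the length and GC correction) and, at a minimum of 10 CPM where fewer genes were counted, of the p53 link (-0.015), astrocyte (0.27) and mesenchyme (-1.95) lists. Rps9 and Rack1 lost the 1.2-fold call with TMM (both -0.26) and after the length and GC correction. With TMM, Rps16, Rpl10, Rpl18 and Rpl13a lost it too. Rps21 and Trp53 lost it after the length and GC correction (both -0.24), as did further members not listed here, while Rpl5 gained it (-0.27). C1qa lost its call with DESeq2 size factors (1.46) and with 5 counts added to each library (1.00). Another scaling moved the median of all tested genes by at most 0.02.

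No paired analysis was possible because each group had 1 library, and for the same reason leaving out a replicate was not run. The spread between cultures is unknown, and no difference here was set against it. Depth limits Rpl24, whose interval spans 0.55 on either side on the log2 scale, more than any other member.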
